A study of Rattus norvegicus with 26 samples.

Results

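The livers compared here came from freely fed control rats that were killed on day 10 or on day 4 of 2 separate feeding experiments. All arrays labelled as liver controls were taken, 5 at day 10 and 4 at day 4, which makes 9 of the 26 arrays of the series. The animals were inbred male Long-Evans (Turku/AB) rats, 11 to 15 weeks old at the start and housed singly under a 12/12 h light cycle. On day 0 all rats, controls included, were given 4 mL/kg corn oil, and both fed groups had free access to R36 feed, which was pelleted in the 4-day experiment and powdered in the 10-day experiment. Each array carried the liver RNA of 1 rat, so arrays count as animals. Feed-restricted rats of the same experiments, 4 at day 4 and 5 at day 10, got a shrinking ration during the light hours, and their levels are used below as a description only. The hour of sampling is not given for either experiment. Expression was measured on the Affymetrix rat expression array, and the deposited log2 values of the 2 liver sets had been pre-processed separately. Day, feed form, hour of sampling and processing set therefore cannot be told apart, and every difference below is between the 2 sets of fed rats.

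The liver runs a circadian clock built from a feedback loop of transcription. BMAL1, paired with CLOCK or NPAS2, activates genes through E-box sequences, among them those of the PER and CRY proteins, which then repress that activation, and those of the nuclear receptors NR1D1 and NR1D2, which repress Bmal1 where the ROR receptors activate it. Outputs such as DBP, TEF and HLF, which activate genes through D-box sequences, and NFIL3, which represses through the same sites, carry the rhythm to metabolism. In rodent liver Bmal1 RNA and the RNAs of Dbp and the Per genes peak at about opposite times of the cycle, and the timing of feeding can shift the liver clock.

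The promoter windows of 4 clock genes whose levels differed between the fed groups are shown because each holds a sequence through which the loop is known to act. They come from RefSeq (assembly GRCr8), run 5′ to 3′ from 250 bases before the start site to 50 bases after it, and were chosen after the motif matches were seen. Capitals mark the matches: AGGTCA, the ROR half-site, in Bmal1 (chr1:176766078-176766377, plus strand); CACGTT, an E-box variant, and a D-box, TTANGTAA, in Per2 (chr9:99496944-99497243, minus strand); and the E-box CACGTG in Tef (chr7:115206577-115206876, plus strand) and Bhlhe40 (chr4:143174200-143174499, plus strand).
Bmal1: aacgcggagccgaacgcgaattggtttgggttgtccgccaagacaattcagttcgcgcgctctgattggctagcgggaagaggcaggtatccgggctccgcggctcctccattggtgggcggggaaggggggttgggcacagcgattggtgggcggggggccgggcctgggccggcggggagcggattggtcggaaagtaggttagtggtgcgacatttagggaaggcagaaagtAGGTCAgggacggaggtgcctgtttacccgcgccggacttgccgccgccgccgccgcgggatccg
Per2: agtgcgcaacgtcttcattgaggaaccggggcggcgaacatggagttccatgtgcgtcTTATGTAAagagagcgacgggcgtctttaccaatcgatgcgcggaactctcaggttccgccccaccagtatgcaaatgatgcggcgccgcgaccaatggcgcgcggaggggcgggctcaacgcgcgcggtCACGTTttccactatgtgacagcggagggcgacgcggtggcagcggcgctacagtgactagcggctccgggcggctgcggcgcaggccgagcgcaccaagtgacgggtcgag
Tef: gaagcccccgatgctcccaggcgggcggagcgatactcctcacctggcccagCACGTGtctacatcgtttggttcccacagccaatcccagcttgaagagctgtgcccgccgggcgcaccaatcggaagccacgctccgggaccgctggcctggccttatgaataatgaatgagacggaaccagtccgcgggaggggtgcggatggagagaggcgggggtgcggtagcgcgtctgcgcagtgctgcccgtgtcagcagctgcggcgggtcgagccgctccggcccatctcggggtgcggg
Bhlhe40: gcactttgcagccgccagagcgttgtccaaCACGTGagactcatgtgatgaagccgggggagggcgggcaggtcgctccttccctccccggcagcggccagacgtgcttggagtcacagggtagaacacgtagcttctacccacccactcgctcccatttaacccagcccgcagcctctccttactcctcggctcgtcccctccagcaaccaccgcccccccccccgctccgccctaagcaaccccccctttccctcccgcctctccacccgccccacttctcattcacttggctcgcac
Both strands were searched, and no match overlapped another motif. Of the 13 clock genes called below that have a promoter entry, 2 held the E-box, 1 the E-box variant, 1 the D-box and 2 the ROR half-site. Over all 33469 promoters of the same length the shares were 6.418%, 4.834%, 2.238% and 16.179%. A match is only a description of the letters in this window.

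Arrays of one set resembled each other more than arrays of different sets: Pearson's r across probe sets was 0.9957 to 0.9976 among the day 4 arrays, 0.9965 to 0.9978 among the day 10 arrays and 0.9845 to 0.9875 between the sets. The 11 hepatocyte markers measured, among them Alb, had array means of 14.45 to 14.46 at day 4 and 14.37 to 14.44 at day 10, near the top of the log2 scale, and none was called. Macrophage markers averaged 9.33 to 9.61 at day 4 and 9.67 to 10.10 at day 10, and adipocyte markers 3.85 to 4.01 and 4.02 to 4.06. The array means of the hepatocyte, macrophage, lymphocyte and adipocyte lists did not overlap between the groups. Of all single genes, 58.0% did not overlap either. Lymphocyte markers averaged 2.75 to 2.80 and 2.92 to 3.01, both near the bottom of the scale. Endothelial, neutrophil, red cell, bile duct and stellate, exocrine pancreas and adipocyte markers had no called member. The 18 hybridisation spike-in probe sets differed by -0.81 to 0.02 as deposited, with a median of -0.23, and 16 of them were lower at day 10. The 3′ minus 5′ difference of the Actb control probe sets was 2.06 ± 0.00 at day 4 and 1.97 ± 0.06 at day 10, and that of GAPDH was 0.24 ± 0.04 and 0.41 ± 0.03 (SD, n = 4 and 5).

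Across the array, 1445 of 31042 probe sets (4.65%) were called, 773 higher at day 10 (2.49%) and 672 lower (2.16%). A probe set was called when limma's test, run after quantile normalization of the 9 arrays, gave a Benjamini-Hochberg adjusted p below 0.05 and the groups differed at least 2-fold, a log2 difference of 1. With each gene shown by its brightest probe set, 757 of 14217 genes (5.32%) were called, 443 higher (3.12%) and 314 lower (2.21%). The median difference over all genes was -0.01. At adjusted p alone, 69.2% of probe sets passed. The balance of directions depended on the scaling: the deposited values gave 1292 probe sets higher and 374 lower, and centring each array on its median gave 1085 and 459. Of the called genes, 395 had a mean level below 5 over the 9 arrays.

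Many genes of the circadian clock differed between the fed groups. Of 25 measured clock genes, 14 (56%) were called against the 5.32% of all genes, with 5 higher and 9 lower at day 10, and in each of the 14 the ranges of the groups did not overlap. Such separation was common: it held for 720 of the 757 called genes and for 8243 of all 14217 genes (58.0%). The activator Bmal1 was high at day 10 and near the floor at day 4, while Dbp, Per1, Per2 and Per3 were high at day 4 and low at day 10. The median size of the difference was 1.58 over the clock list and 0.156 over all genes, on the log2 scale. The clock list also holds outputs such as Por and Tsc22d3. It was chosen with earlier results of these data known, so its share and median are a description and no independent support. Without overlap, the direction of all 14 could not change when the day 10 arrays of either scan day were used alone, so this gives no check. The call of Npas2 was lost against either scan day alone (limma adjusted p = 0.0508 and 0.0768). That of Noct was lost against the second (0.0636). In bulk liver, fewer cells of a type and less RNA per cell cannot be told apart.

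**Figure D1:**
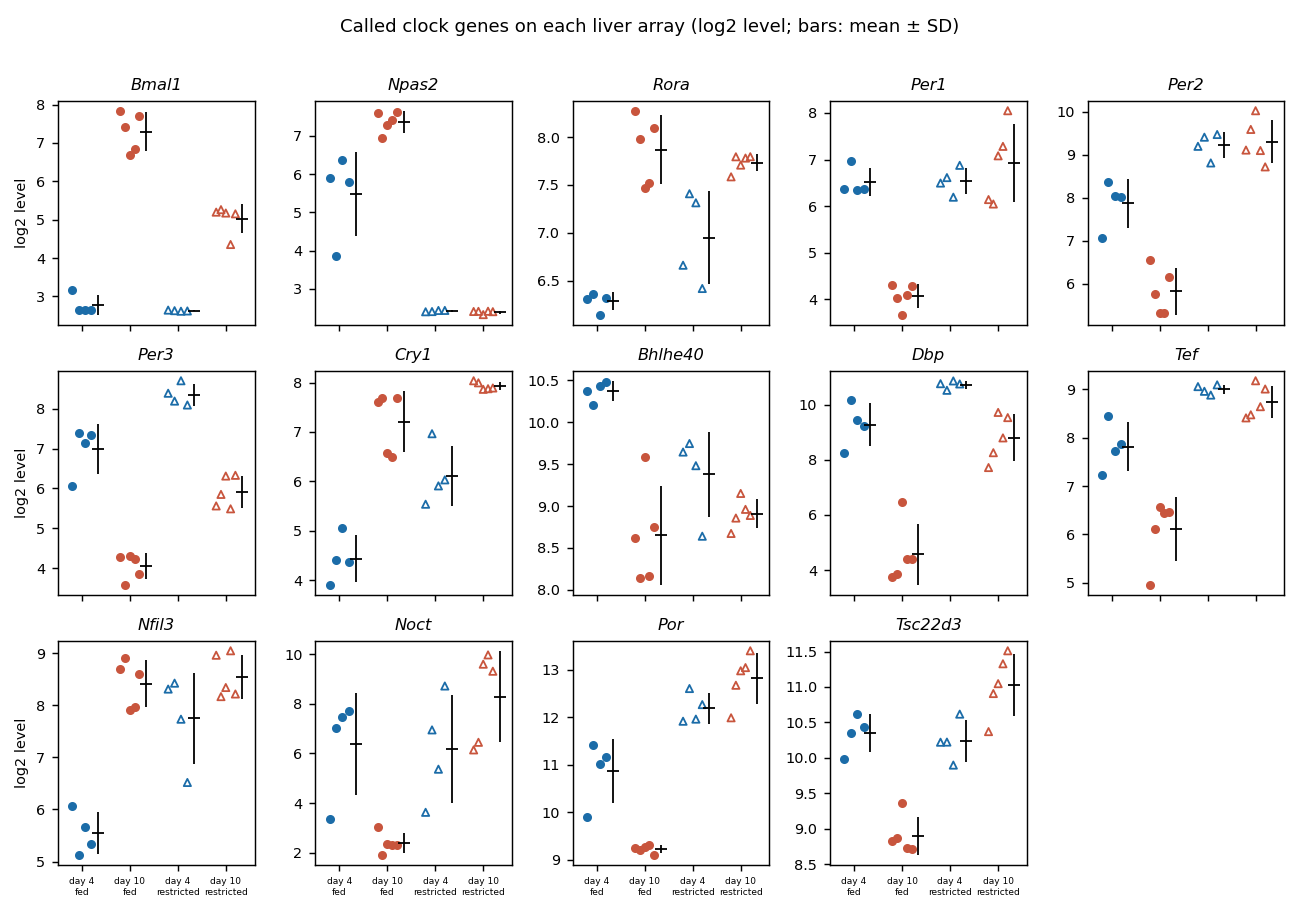
Normalized log2 level of the 14 called clock genes in each liver array, with fed and restricted groups of both sets side by side; circles are fed and triangles restricted arrays, and the crosses give the group mean ± SD. The 4 fed day 4 arrays of Bmal1 sit between 2.65 and 3.15 and the 5 fed day 10 arrays between 6.68 and 7.84, and Dbp shows the opposite order.

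Among the activators, 3 of 4 measured genes rose and none fell. Bmal1 read 3.15, 2.65, 2.65 and 2.66 in the day 4 livers and 7.84, 7.41, 6.68, 6.84 and 7.71 in the day 10 livers (log2 level). No array of one group came near the other, and the day 4 livers lay near the bottom of the scale, under the median of all probe sets on an array (3.24). The difference was 4.52 (SE 0.27, limma adjusted p = 1.88e-06), from 2.78 ± 0.25 (SD, n = 4) to 7.30 ± 0.52 (SD, n = 5). By its rank within an array, which these scalings leave alone, Bmal1 stood at percentile 37.1 of all probe sets at day 4 and 78.2 at day 10. Npas2, which can take the place of CLOCK, read 5.91, 3.87, 6.36 and 5.78 at day 4 and 7.60, 6.93, 7.27, 7.42 and 7.63 at day 10, a rise of 1.89 (SE 0.48, adjusted p = 0.00876). Its lowest day 4 array was replicate 2, and the adjusted p was 0.0508 and 0.0768 when only the day 10 arrays of one scan day were used. Rora, a receptor that activates Bmal1, read 6.31, 6.36, 6.14 and 6.32 at day 4 and 8.27, 7.98, 7.46, 7.52 and 8.10 at day 10. It rose by 1.58 (SE 0.18, adjusted p = 0.000107), although the median over its probe sets was 0.79. Clock itself, the usual partner of BMAL1, was 8.94 ± 0.26 and 9.35 ± 0.14, a difference of 0.41 (adjusted p = 0.0217) that is under 2-fold. A second, dimmer Clock probe set was called, with a rise of 1.36 (adjusted p = 0.0155). Its remaining probe sets, at 0.19 and -0.01, were not, and the median over all of them was 0.78.

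Of the 11 repressors and modifiers measured, 4 fell and 1 rose. Per3, a PER family member, fell furthest, from 6.05, 7.39, 7.13 and 7.35 at day 4 to 4.28, 3.59, 4.31, 4.24 and 3.86 at day 10, a difference of -2.93 (SE 0.31, adjusted p = 6.55e-05). Its second, dimmer probe set differed by -0.72 and was not called. Per1 read 6.38, 6.96, 6.35 and 6.38 at day 4 and 4.31, 4.04, 3.68, 4.09 and 4.28 at day 10, and it fell by 2.44 (SE 0.175, adjusted p = 5.96e-06). Both genes were separated by more than 1 log2 unit between the nearest arrays. Per2, whose promoter is shown above, read 7.06, 8.37, 8.05 and 8.02 at day 4 and 6.56, 5.76, 5.32, 5.33 and 6.16 at day 10. It fell by 2.05 (SE 0.35, adjusted p = 0.0012), but its second, dim probe set went the other way, to 3.49 at day 10 and a rise of 1.09 (adjusted p = 6.68e-11), which left a median over both of -0.48. Cry1, a strong repressor of BMAL1 and CLOCK, was the one that rose: 3.91, 4.42, 5.06 and 4.37 at day 4 against 7.60, 7.69, 6.57, 6.50 and 7.68 at day 10, a difference of 2.77 (SE 0.36, adjusted p = 0.000235). Its direction was thus opposite to that of the Per genes. Bhlhe40, an E-box repressor also known as DEC1, fell from 10.38, 10.21, 10.43 and 10.48 to 8.62, 8.14, 9.59, 8.16 and 8.75 (difference -1.72, SE 0.29, adjusted p = 0.00103).

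The remaining repressors were not called by their brightest probe set. Nr1d2, a repressor of Bmal1, differed by -0.9965 (SE 0.31, adjusted p = 0.0205) and lay just under the size needed, and 2 of its other probe sets passed, at -1.06 and -2.05. It passed, at -1.03 to -1.17, when day 10 replicate 3, 4 or 5 or day 4 replicate 1 or 3 was left out. Nr1d1 differed by -0.69 (adjusted p = 0.137) and Cry2 by -0.18 (adjusted p = 0.392), though a second Cry2 probe set fell by 1.98 (adjusted p = 1.23e-06). Bhlhe41 (-0.03) and the kinases of the PER proteins, Csnk1e (-0.11) and Csnk1d (-0.22), were under 2-fold. Bhlhe41 (2.54 and 2.51) and Csnk1e (3.31 and 3.19) lay near the bottom of the scale at day 4 and day 10. A second Csnk1e probe set differed by 0.73 (limma adjusted p = 0.00122), also under 2-fold. The signs of Cry2 and Csnk1d flipped with median centring and with the values as deposited.

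Of the 10 clock outputs, 5 fell and 1 rose. Dbp, an activator through D-boxes, read 8.26, 10.17, 9.43 and 9.22 at day 4 and 3.74, 3.85, 6.45, 4.41 and 4.40 at day 10. Every day 4 liver was above every day 10 liver, with replicate 3 the highest of the day 10 group. The fall of 4.70 (SE 0.62, adjusted p = 0.000278), from 9.27 ± 0.79 (SD, n = 4) to 4.57 ± 1.10 (SD, n = 5), was the largest among the genes named here by their brightest probe set, and Dbp went from percentile 89.9 to 62.5 within an array. Nfil3, the D-box repressor, moved the other way, from 6.06, 5.13, 5.67 and 5.34 to 8.69, 8.91, 7.92, 7.96 and 8.60. It rose by 2.86 (SE 0.28, adjusted p = 3.99e-05). Tef, a relative of Dbp with an E-box in the window shown, fell from 7.23, 8.46, 7.72 and 7.86 to 4.96, 6.11, 6.56, 6.44 and 6.47, by 1.71 (SE 0.39, adjusted p = 0.0048). The median over its probe sets was -0.84. Hlf, the remaining relative, differed by -0.76 (adjusted p = 0.0487) and was not called, while 2 of its 4 probe sets were, at -1.20 and -1.04, and the gene was called without day 4 replicate 1 (-1.03).

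Noct, a phosphatase with a strong nightly rhythm in rodent liver, read 3.35, 7.01, 7.45 and 7.69 at day 4 and 3.02, 1.92, 2.34, 2.31 and 2.32 at day 10. It fell by 3.99 (SE 0.88, adjusted p = 0.00421), with replicate 1 of day 4 close to the day 10 range. The fall was 5.003 without that array, and the adjusted p was 0.0636 against the day 10 arrays of the second scan day alone. Noct lay near the bottom of the scale in day 10 livers, under the median of all probe sets. Por, the reductase that supplies electrons to cytochromes P450, read 9.89, 11.41, 11.01 and 11.17 at day 4 and 9.24, 9.21, 9.26, 9.31 and 9.11 at day 10, a fall of 1.65 (SE 0.28, adjusted p = 0.00122). Tsc22d3, which glucocorticoids also induce, fell by 1.45 (SE 0.17, adjusted p = 0.000134). For Usp2, a deubiquitinase, the brightest probe set differed by -0.83 (adjusted p = 0.154; -1.32 and called without day 4 replicate 1) and a second one went from 8.48 to 3.29, a difference of -5.19 (SE 0.519, adjusted p = 4.95e-05). Wee1 (0.23) and Nampt (-0.44) were not called. Replicate 1 of the day 4 group lay nearest to the day 10 mean in 9 of the 14 called clock genes, and replicates 2, 3 and 4 in 2, 3 and 0, a count made after the values were seen.

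The restricted livers of the same 2 sets shared part of the clock gene differences. Between the restricted groups, 4 of the 14 called clock genes differed at least 2-fold the same way as in the fed livers, 9 differed by less and 1 went the opposite way. Those in the same direction were Bmal1 (from 2.63 at day 4 to 5.03 at day 10), Per3 (8.34 to 5.91), Cry1 (6.11 to 7.93) and Dbp (10.72 to 8.80), as group means, and Noct was opposite (6.16 to 8.29). Group means of the restricted livers at day 4 and day 10 were 6.54 and 6.92 for Per1 and 9.22 and 9.31 for Per2. For Npas2 they were 2.42 and 2.39, both near the bottom of the scale and under the median of all probe sets (3.24). For Por they were 12.19 and 12.82. Rora (0.78), Nfil3 (0.80), Bhlhe40 (-0.47) and Tef (-0.26) differed between the restricted groups in the fed direction, at under 2-fold. Tsc22d3 (0.79) differed the other way, also at under 2-fold. Of all 757 called genes, 516 (68.2%) differed at least 2-fold the same way between the restricted groups, 15 the opposite way and 226 by less. Of these 757, 179 varied by an SD under 0.1 within both fed groups, a bound set after the values were seen, and 169 of the 179 differed the same way between the restricted groups. No test was made of fed against restricted.

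**Figure D2:**
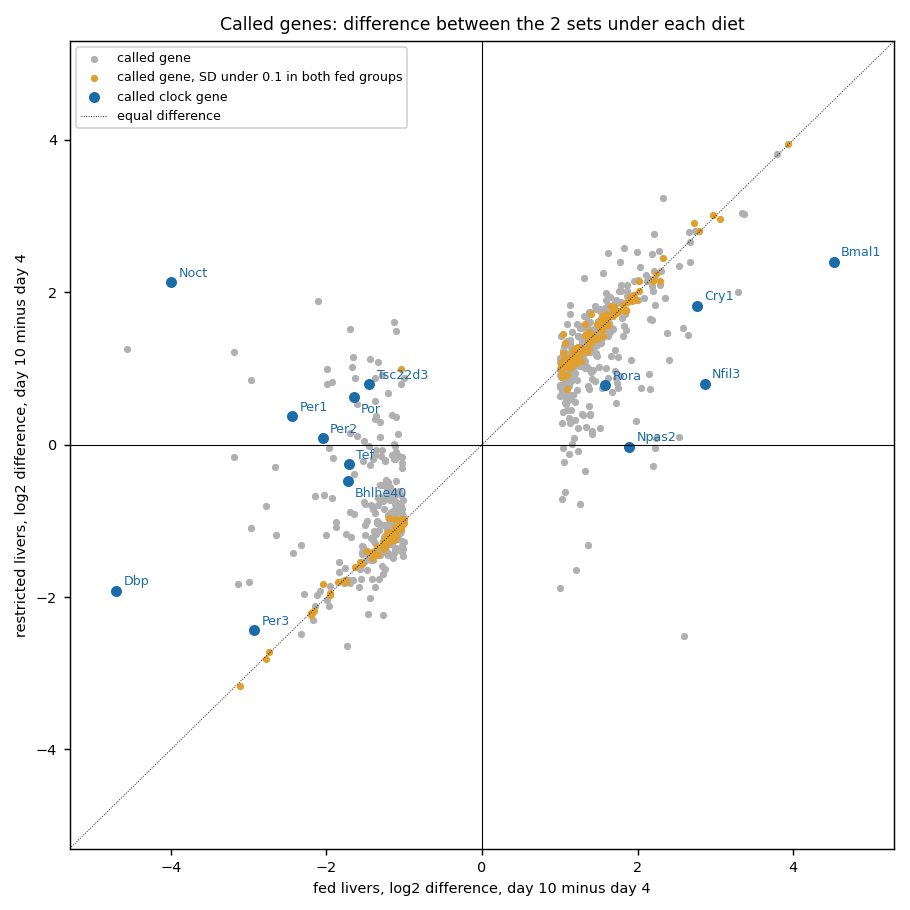
Each point is a called gene: the x axis gives the log2 difference between the sets in fed livers (day 10 minus day 4) and the y axis the same difference in restricted livers. Clock genes are blue, genes with an SD under 0.1 in both fed groups orange, and the dotted line marks equal differences. Many points lie along it, 516 of 757 at 2-fold or more in the same direction, while Per1, Per2, Npas2, Por, Tsc22d3 and Noct lie near or across the horizontal zero line. Rora, Nfil3, Bhlhe40 and Tef keep the fed direction at under 2-fold.

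Of 19 fatty acid synthesis genes measured, 7 fell in fed day 10 livers, none rose and the others were not called, against 2.21% of all genes called lower. The differences ran from -3.19 to 0.71 with a list median of -0.85, and all 7 falls were larger against the day 10 arrays of the second scan day than against those of the first. Elovl6, an elongase, read 8.53, 9.65, 10.58 and 9.94 at day 4 and 8.09, 7.41, 7.50, 6.45 and 5.64 at day 10. The groups did not overlap, and it fell by 2.65 (SE 0.59, adjusted p = 0.00449), by 2.01 against the arrays of the first scan day and by 3.63 against those of the second. Pnpla3, a lipase of fat droplets, differed by -3.19 (SE 1.05, adjusted p = 0.0267), with 7.02, 9.80, 11.59 and 12.25 at day 4 and 8.11, 6.98, 7.14, 6.73 and 5.91 at day 10. Its groups overlapped through replicate 1 of day 4, and leaving out day 10 replicate 4 or 5 or day 4 replicate 3 or 4 raised the adjusted p to between 0.053 and 0.0733. Pnpla3 was called in 1 of its 3 probe sets. Fasn, fatty acid synthase, read 12.74, 13.43, 13.80 and 13.85 against 13.41, 11.88, 12.12, 11.25 and 10.95, also with overlap. It differed by -1.53 (SE 0.51, adjusted p = 0.0275), and the call was lost without any 1 of 6 arrays (day 10 replicates 2, 4 and 5, day 4 replicates 2, 3 and 4; adjusted p 0.0519 to 0.0704). The other 4 that fell were Me1 (-1.97), Scd (-1.46), Acaca (-1.31) and Acly (-1.13), enzymes that supply reducing power, desaturate fatty acids, and make malonyl-CoA and acetyl-CoA. The call of Acly was lost without day 10 replicate 5 or day 4 replicate 2, 3 or 4. Against the first scan day alone Me1 (adjusted p = 0.0565), Scd (-0.94) and Acly (-0.74) missed a call, and on the deposited scale Fasn (adjusted p = 0.0571), Acaca (-0.99) and Acly (-0.89) did. Srebf1, a transcription factor that drives these genes, differed by -0.19 and was not called.

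Of 20 genes of fatty acid oxidation and PPARα response, 6 rose and 1 fell (list median 0.38), against 3.12% and 2.21% of all genes. Fgf21, a hormone that the liver releases in fasting, read 4.92, 4.68, 3.96 and 4.83 at day 4 and 6.92, 6.71, 7.52, 6.91 and 6.82 at day 10, a rise of 2.38 (SE 0.24, adjusted p = 5.13e-05). Pdk4, a kinase that turns off pyruvate dehydrogenase, read 8.51, 8.45, 8.78 and 8.60 against 10.09, 10.93, 10.85, 10.38 and 10.60, a rise of 1.98 (SE 0.18, adjusted p = 2.44e-05). The groups were apart for both genes. Cyp4a3 (1.38) and Cyp4a1 (1.29), which hydroxylate fatty acids, Angptl4 (1.31), which inhibits lipoprotein lipase, and Eci1 (1.18), an isomerase of oxidation, also rose. The median over the probe sets of Eci1 was 0.57, and the adjusted p of Angptl4 was 0.0685 against the second scan day alone. The receptor gene Ppara fell by 1.05 from a low level, 3.52 to 2.47, and by 0.97 without day 4 replicate 4. Among 15 genes of glucose metabolism, Pklr, liver pyruvate kinase, fell by 1.41 (SE 0.18, adjusted p = 0.000222) and the coactivator gene Ppargc1a by 1.13 (adjusted p = 0.000745). Without day 4 replicate 4 Ppargc1a fell by 0.95, and 1 of its 3 probe sets was called. Igfbp1, which binds insulin-like growth factors, rose by 1.62 (SE 0.58, adjusted p = 0.0371) with overlapping groups, and the call was lost without day 10 replicate 1, 2 or 4 or day 4 replicate 1 or 4 (adjusted p 0.0666 to 0.0944).

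Bile acid and sterol genes held 3 calls among 14, where 5.32% of all genes were called. Cyp7a1, the rate-limiting enzyme of bile acid synthesis, read 11.47, 12.34, 13.23 and 11.97 at day 4 and 11.30, 10.65, 10.23, 9.74 and 9.34 at day 10. No arrays overlapped, and it fell by 2.00 (SE 0.48, adjusted p = 0.00685), by 1.53 and 2.71 against the arrays of the first and second scan day. Nr1h4, the bile acid receptor FXR, rose by 1.25 (SE 0.12, adjusted p = 4e-05), from 8.00, 7.76, 8.32 and 7.83 to 9.42, 9.16, 9.23, 9.27 and 9.08. Its restricted means differed about as much, 7.75 at day 4 and 9.03 at day 10. Abcg8, a sterol transporter, rose by 1.06 (SE 0.27, adjusted p = 0.00863), and by 0.94 to 0.96 without day 10 replicate 3 or 4 or day 4 replicate 3. None of 15 cholesterol synthesis genes was called, with Idi1 (0.67) and Mvd (0.60) the largest. Among 18 urea cycle and amino acid catabolism genes, Tat, tyrosine aminotransferase, fell by 1.05 (SE 0.24, adjusted p = 0.00525), and it went below 2-fold, to between -0.95 and -0.99, without day 10 replicate 4 or 5 or day 4 replicate 2, 3 or 4.

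**Figure D3:**
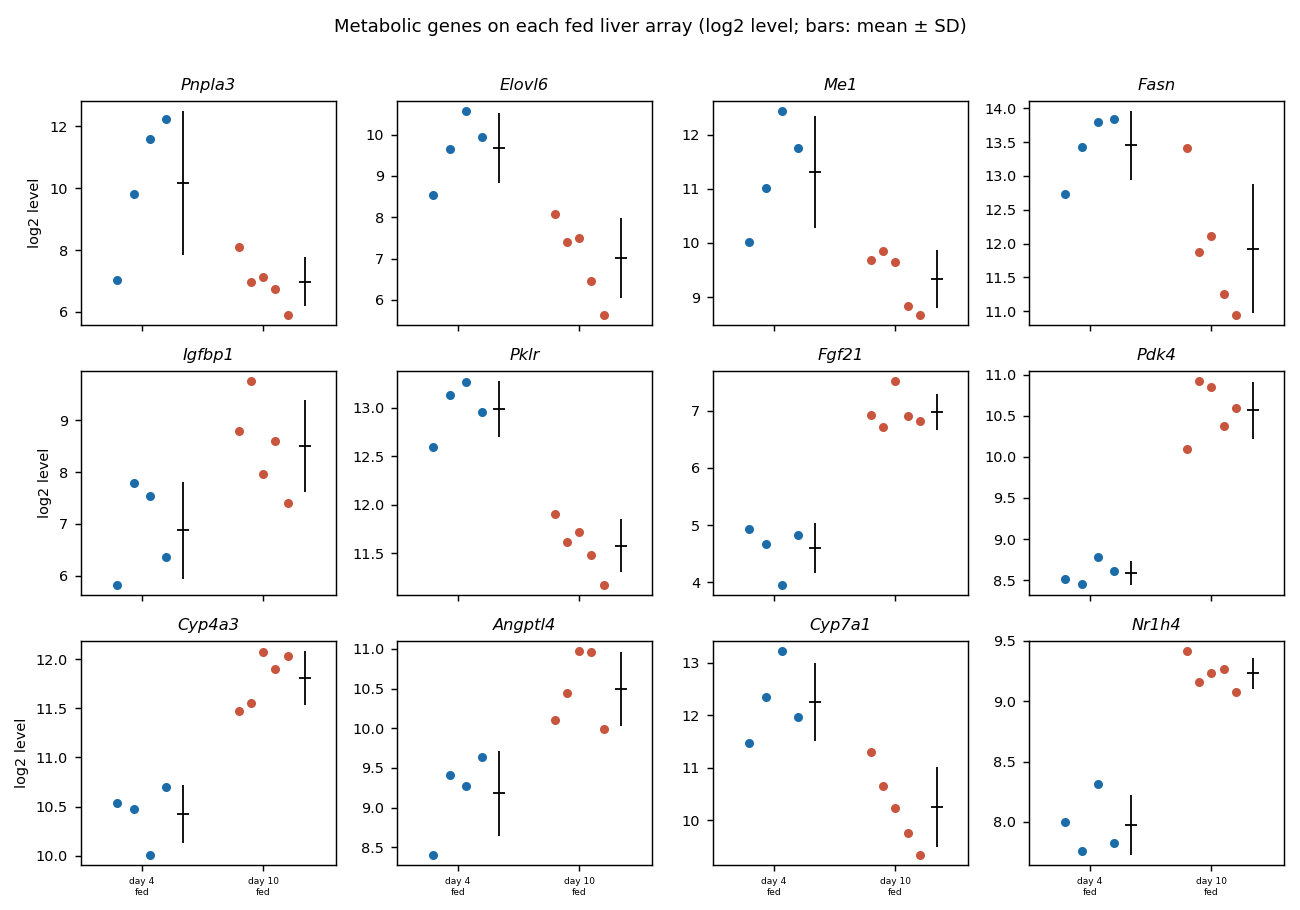
Normalized log2 level of 12 metabolic genes in each fed liver array; circles are arrays and the crosses give the group mean ± SD. In fed livers Elovl6 and Cyp7a1 sit lower at day 10 and Pdk4, Fgf21 and Nr1h4 higher, without overlap, while Fasn and Pnpla3 overlap.

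Of 14 glucocorticoid-responsive genes, 6 fell and 3 rose, against 2.21% and 3.12% of all genes. Per1, Tsc22d3, Tat and Igfbp1 were shared with the lists above. Fkbp5, a co-chaperone of the glucocorticoid receptor, read 6.29, 6.73, 6.10 and 7.65 at day 4 and 4.76, 4.75, 4.70, 4.65 and 4.66 at day 10, a fall of 1.99 (SE 0.29, adjusted p = 0.000474). Of its 2 probe sets, 1 was called. Lcn2, an iron-binding protein that is also an acute phase gene, read 5.59, 6.32, 3.45 and 7.10 at day 4 against 2.56, 2.52, 2.26, 2.37 and 2.41 at day 10, and it fell by 3.19 (SE 0.66, adjusted p = 0.0031; 0.0585 against the second scan day alone). Its day 10 livers lay near the bottom of the scale, under the median of all probe sets. Cdkn1a, the cell cycle inhibitor p21, rose by 2.53 (SE 0.18, adjusted p = 6.09e-06), from 2.82, 2.80, 2.84 and 2.94 to 5.50, 5.65, 5.16, 4.85 and 5.74, and restricted livers read 2.79 and 5.13. Its day 4 livers lay under the median of all probe sets, and 1 of its 2 probe sets was called. Klf9 (-1.08) and the metallothionein Mt2A (1.06) completed the count. The median over the probe sets of Klf9 was -0.22, and its call was lost without day 10 replicate 1 or 2 or day 4 replicate 1, and the difference of Mt2A was 0.86 to 0.89 without day 4 replicate 3 or 4.

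The remaining lists held few calls, to be read beside the 5.32% of all genes that were called. Among 19 cell cycle genes, Ccnd1, cyclin D1, fell from 8.55, 8.68, 9.38 and 9.81 to 6.34, 6.75, 8.02, 7.05 and 7.97 (-1.88, SE 0.44, adjusted p = 0.00581), and Cdkn1a rose. Ccnd1 was called in 1 of its 3 probe sets. Of 16 matrix genes, the collagens Col6a3 (-2.43, called in 1 of its 2 probe sets), Col1a1 (-2.15) and Col1a2 (-1.69) fell. The cross-linking enzyme Lox rose by 2.59 (SE 0.51, adjusted p = 0.0025), while its restricted means were 5.29 at day 4 and 2.78 at day 10. Among 17 interferon-stimulated genes the chemokine Cxcl10 fell by 1.76 (SE 0.12, adjusted p = 5.3e-06) and Mx1, an antiviral GTPase, by 1.02 (adjusted p = 0.0469), the latter lost without any of the arrays but day 10 replicate 1 and day 4 replicate 3. Both were also lower at day 10 in restricted livers, with means of 4.90 and 3.27 for Cxcl10 and 4.64 and 3.27 for Mx1. Among 22 genes of xenobiotic metabolism, Aldh3a1 differed by -1.91 (SE 0.68, adjusted p = 0.0359) and Alas1, the first enzyme of heme synthesis, by -1.11 (SE 0.36, adjusted p = 0.0248). Replicate 2 of day 4 had the highest level of Aldh3a1, 7.01 against 3.09 to 4.76 in the rest of its group, and without it the difference was -1.19. Aldh3a1 lay under the median of all probe sets in day 10 livers, at a mean of 2.92. Its call was lost without any 1 of the other arrays except day 4 replicate 4 (adjusted p 0.0547 to 0.0686), and that of Alas1 without day 10 replicate 2, 3 or 4 or day 4 replicate 2, 3 or 4. Of 18 endoplasmic reticulum genes, Herpud1 fell by 1.16 (adjusted p = 0.00685), and by 0.85 on the deposited scale. Of 11 macrophage markers Adgre1, the F4/80 antigen, rose by 1.02 (SE 0.23, adjusted p = 0.00524), and by 0.79 to 0.98 without day 10 replicate 2 or 4 or day 4 replicate 2. Heat shock proteins (10 genes), growth hormone and sex-biased genes (19) and ribosomal proteins (11) had no call by limma, with 5, 5 and 7 members at adjusted p below 0.05.

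**Figure D4:**
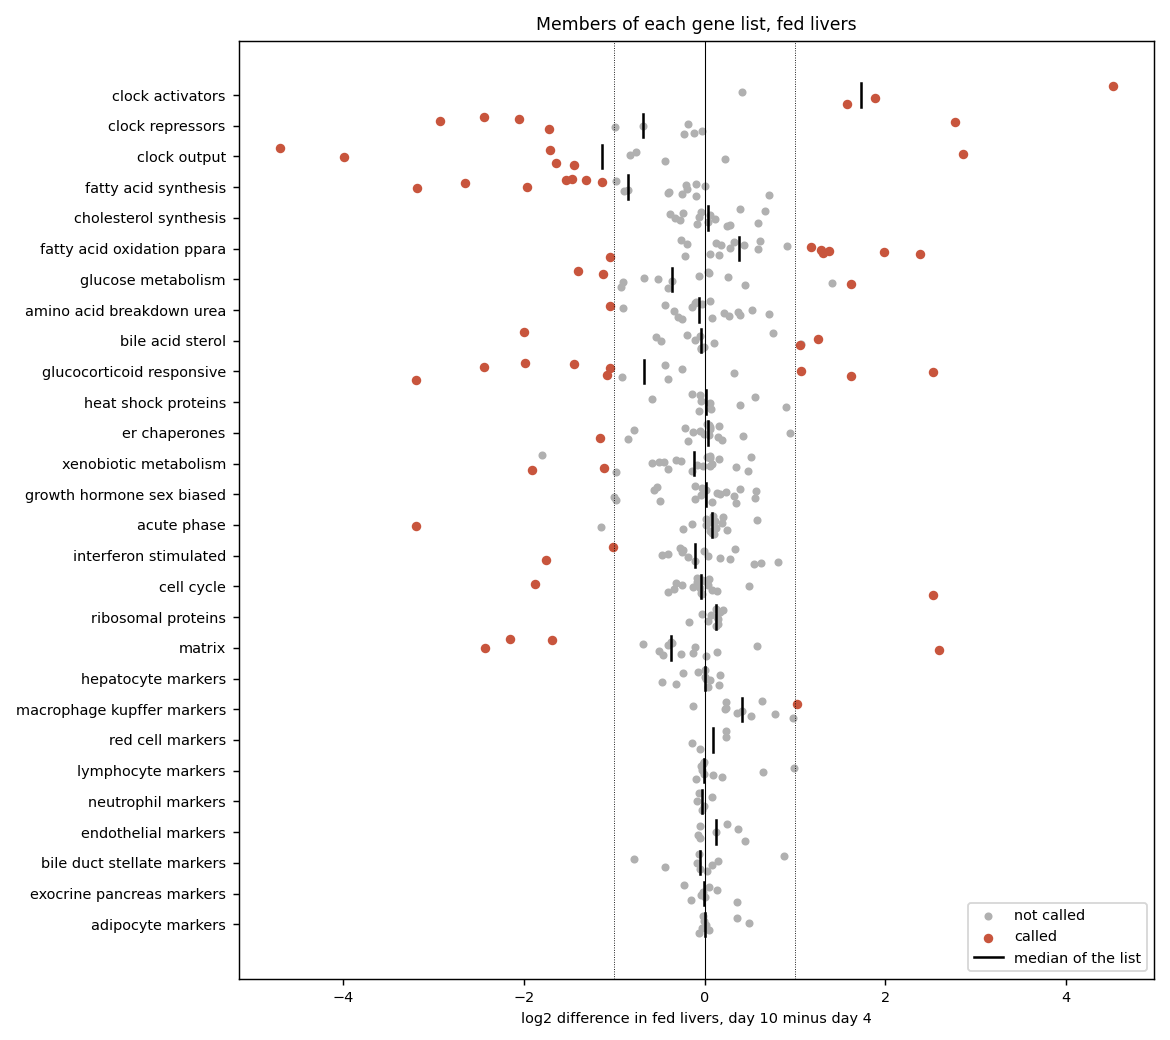
Log2 difference between fed livers (day 10 minus day 4) of every measured member of each gene list, one row per list; red points were called, grey points were not, black ticks are list medians and dotted lines mark 2-fold. The clock rows spread from -4.70 to 4.52, while the hepatocyte marker row stays between -0.47 and 0.17.

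Beyond these lists, the largest rises and falls came from genes of many kinds. Zfp354a, a zinc finger gene, fell from 8.76, 11.12, 10.63 and 10.68 to 5.84, 5.56, 5.63, 5.73 and 5.90 (-4.57, SE 0.45, adjusted p = 4.31e-05), whereas the restricted means were 8.69 at day 4 and 9.94 at day 10. Slc2a5, the fructose transporter, fell by 2.78, from 6.73 to 3.96, and Tsku, a secreted protein of the liver, by 2.97 (SE 0.69, adjusted p = 0.00555). Rab30, a small GTPase, rose by 2.65 (SE 0.70, adjusted p = 0.0103), from 3.44 to 6.09, and Ppard, the receptor PPARδ, by 2.41, from 4.08 to 6.48. Some of the largest differences were as large in restricted livers: Msantd3 went from 2.33 to 6.27 in fed and from 2.32 to 6.26 in restricted livers, and Scn10a, a sodium channel gene, fell by 2.78 in fed livers and went from 6.43 to 3.62 in restricted ones. Msantd3, Mup5 (3.29), Ank1 (2.67), Scd2 (2.28) and Enc1 (-2.66) rested on 1 of several probe sets, with medians over probe sets of -0.33, -0.25, -0.07, -0.02 and -0.04. Ppard was called in 1 of its 2 probe sets. The others among the 15 largest rises were Cracr2b (3.79), RT1-DMa (3.34), Zfp579 (3.06) and Phlda3 (2.58), beside genes named above. Between the restricted groups these differed by 3.81, 3.04, 2.97 and 1.53, in the same order, and Ank1 by 2.66. The others among the 15 largest falls were Dixdc1 (-3.14), Klf13 (-2.99), Rell1 (-2.97), Ntf3 (-2.33) and Tiprl (-2.17). Their restricted differences were -1.83, -1.80, -1.10, -1.31 and -2.18.

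The genes whose levels ran most like those of Dbp over all 18 liver arrays, each set centred on its own mean, were Tef (Pearson's r = 0.956), Pim3 (0.947), Herpud1 (0.946), Mfsd2a (0.944) and Por (0.942). Those most like Bmal1 were Akr1c3 (0.942), Akr1c13 (0.932), Mreg (0.929), Zmiz2 (0.899) and Ust5r (0.898). The centring removes the difference between sets, so these values reflect the variation within sets, diet included, and are given without a p. Bmal1 lay near the bottom of the scale in day 4 livers (means 2.78 fed, 2.63 restricted). Its correlations therefore rest mostly on the day 10 arrays, where its means were 7.30 fed and 5.03 restricted. Between the fed groups Mfsd2a, a lipid transporter, fell by 1.66 (adjusted p = 0.0291; lost without day 10 replicate 2 or 4 or day 4 replicate 2, 3 or 4), and Pim3 differed by -0.73. Akr1c3 (0.02), Akr1c13 (-0.06), Mreg (0.08), Zmiz2 (0.91) and Ust5r (-0.06) were not called, unlike Bmal1.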

How the data were processed

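Liver RNA of each rat was hybridised to 1 array. The deposited values are on the log2 scale and were made by the authors with R 2.4.1, affy 1.12.2, RMA and GCRMA 2.6.0, per the submitters' processing notes, which do not say which method made them. Per the labels, adipose, 4-day liver and 10-day liver arrays were pre-processed as 3 separate sets. Here the 9 fed liver arrays were quantile normalized, which keeps the order within an array, and tested with limma 3.58.1 (lmFit, eBayes, two-sided) in R 4.3.3, with Benjamini-Hochberg adjustment over 31042 probe sets after 57 control probe sets were left out of 31099. The test was checked on simulated data. A call needed adjusted p below 0.05 and a log2 difference of 1. Restricted arrays were mapped onto the same distribution and not tested. No intensities were used, so background and depth are unknown, and the number of arrays limits precision. From the scan records of the day 10 arrays only the scan dates were taken. Of the tested probe sets, 20826 had 1 gene symbol, 436 several and 9780 none here. A gene was shown by its probe set with the highest mean. Named were all clock genes, the 15 largest separate rises and falls with a higher group mean of at least 6, up to 4 called members of each other list (2 where none was called), and the 5 genes most like Dbp and Bmal1; other called list members were named later, with values seen, to complete a count. The members and lists were chosen with earlier results of these data known. Alternatives were the deposited scale, median centring, within-array normal scores, normalization or fit over 18 arrays, limma's treat, larger size, a filter on low levels, probe-set medians, a replicate block, each scan day of the day 10 arrays, and leaving out each array. Scan records of the day 4 arrays were not used here.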

Additional observations from a re-analysis of the deposited data

Results flagged for a closer look

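In 24 of 226 groups of fed arrays, over 113 named genes, 1 array stood apart from the rest of its group by Dixon's test; chance flags about 1 in 20 groups. Values are normalized log2 levels.

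Among the clock genes, replicate 1 of day 4 was apart for Bmal1 (3.15 against 2.65 to 2.66) and Noct (3.35 against 7.01 to 7.69), and replicate 2 of day 4 for Per1 (6.96 against 6.35 to 6.38). Replicate 3 of day 10 was apart for Dbp (6.45 against 3.74 to 4.41) and Tsc22d3 (9.36 against 8.71 to 8.86), replicate 1 for Tef (4.96 against 6.11 to 6.56) and replicate 5 for Wee1 (3.74 against 3.88 to 3.92).

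Replicate 3 of day 10 also stood apart for Fgf21 (7.52) and Pim3 (8.40), and replicate 1 for Zfp579 (6.49) and Enc1 (2.99). The collagens Col6a3 (4.40 against 3.16 to 3.26) and Col1a1 (5.05 against 3.65 to 3.96) were high in replicate 4 of day 10, and replicate 5 was apart for Aldh3a1 (2.99) and Prss1 (3.75).

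In the day 4 group replicate 2 was apart for 5 further genes: Alas2 (9.11 against 5.77 to 6.11), a red cell gene, S100a9 (3.20), Krt19 (2.95), Cd2 (3.92) and Akr1c3 (7.11 against 7.79 to 7.85). Replicate 1 was low for Tat (11.69 against 12.39 to 12.46). Replicate 3 was apart for Tiprl (6.24), Pnlip (2.55) and Prss1 (4.17).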

How the results depend on the processing

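The counts of 773 probe sets higher and 672 lower, and of 5 and 9 clock genes, moved with the rule of the call and with the scale. At adjusted p alone 7545 probe sets were higher and 13938 lower, with 14 clock genes lower. Within-array normal scores, which changed the scale and were also called at adjusted p alone, with no 2-fold size, gave 7712 and 14468, with 14 clock genes lower, so these counts do not separate the choices. limma's treat gave 320 and 211, with 3 and 3 clock genes, and a log2 difference of at least 2 gave 87 and 63, with 3 and 5. A mean of at least 5 left 10783 probe sets, with 301 higher and 337 lower, and the deposited values gave 1292 and 374. Leaving out 1 array gave 762 to 801 higher and 655 to 711 lower, with 5 and 9 to 12 clock genes. Normalizing or fitting over 18 arrays moved none of the 113 named calls. A replicate block gave 754 and 640 and ended 12 of the 113, but same-numbered arrays of the sets did not deviate together (r = -0.19, -0.01, 0.06 and -0.04), so the numbers pair nothing. Among the 113, 14 calls were lost against the first scan day alone, 12 against the second, 6 with median centring, 11 on the deposited scale and 8 with probe-set medians.

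Signs turned in these cases, and the cause was not tested. Median centring and the deposited scale gave 0.058 and 0.14 for Cry2, 0.0041 and 0.082 for Csnk1d, 0.023 and 0.10 for Rps3, 0.17 and 0.25 for Akr1c13, and 0.18 and 0.26 for Ust5r. The median over probe sets gave 0.51 for Csnk1e, -0.33 for Msantd3, -0.25 for Mup5, -0.066 for Ank1 and -0.018 for Scd2. The day 10 arrays of the second scan day gave -0.16 for S100a9 and -0.56 for Akr1c3. Leaving out 1 array gave -0.011 to 0.71 for Hbb, -0.16 to 1.04 for Alas2, -0.013 to 0.20 for S100a9, -0.20 to 0.19 for Akr1c3 and -0.11 to 0.035 for Akr1c13.

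Limits: day, feed form, processing set and hour of sampling cannot be told apart, since each fed group lies in 1 set. Folds against levels under the array median (3.24) are read near the bottom of the scale, and no detection calls were used. The restricted livers were compared as levels only.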

Other observations

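Lists with no called member held some genes near the bound. The small heat shock gene Hspb1 differed by 0.90 and passed on the median-centred (1.14) and deposited (1.22) scales. Cd2, a lymphocyte gene, differed by 0.99, at a level between 3.85 and 3.92 in day 4 livers. Dnajb1 differed by -0.58. The ribosomal protein genes Rpl5 (0.20) and Rps3 (-0.18) lay near 0. The hepatocyte genes Asgr1 (-0.47) and Hnf4a (-0.31) did not reach 2-fold.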
